A study of Homo sapiens with 6 samples.

Results

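A set of 9 genes was read from the deposited count table by their symbols: the class IA phosphoinositide 3-kinase (PI3K) catalytic genes PIK3CA, PIK3CB and PIK3CD, the class IA regulatory genes PIK3R1, PIK3R2 and PIK3R3, and the antagonist phosphatase genes INPP4B, INPP5D and PHLPP1. They were 9 of the 33451 genes in the table, and 8 of them passed the low-count filter and were tested. The libraries were made from MDA-MB-453, an established human breast cancer cell line of luminal apocrine type. All cultures grew in serum-containing medium. One group received 100 nM 25(OH)D, the circulating form of vitamin D, and the other received the solvent, 0.1% alcohol, both for 5 days, with 3 libraries per group. The study's methods call the libraries of a group biological replicates without saying how the cultures were kept apart, so p-values measure the spread between these libraries. The comparison asks how the mRNA of the kinase subunits and of the phosphatases that oppose them differed between the groups.

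Class IA PI3K is a dimer of a catalytic and a regulatory protein that is recruited to activated receptors and receptor adaptors at the plasma membrane. It phosphorylates an inositol lipid, and the product recruits the kinase AKT, which drives growth through mTOR and keeps FOXO transcription factors out of the nucleus. The regulatory proteins stabilise the catalytic proteins and hold their activity down until a receptor is engaged. Phosphatases reverse the pathway at several steps: INPP4B and INPP5D remove phosphates from the lipids, and PHLPP1 removes a phosphate from AKT itself. In breast cancer the catalytic gene PIK3CA is often mutated, and INPP4B is known as a tumour suppressor. Only mRNA was measured here, not protein, lipid or phosphorylated AKT.

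Depth, the identity of the cells and the response over all genes were checked first. The libraries held between 33268860 and 40928176 counts, so that 3 counts, taken as the floor, were worth between 0.0720 and 0.0920 CPM (counts scaled to the library total and by the trimmed mean of M-values, TMM). Of 12 luminal apocrine markers, 11 had at least 100 counts in every library, and their summed level was 5188 to 5330 CPM in control and 5768 to 5810 CPM in 25(OH)D, with KRT8 the highest. Of 12 leukocyte markers, 5 had at most 3 counts in every library. Their sum was 4.75 to 6.45 CPM in control and 13.7 to 19.96 CPM in 25(OH)D, and nearly all of it was CD68, a lysosomal protein that is not restricted to leukocytes, with means of 4.93 and 15.9 CPM. The defining leukocyte marker PTPRC had 0 to 6 counts per library. The 7 fibroblast and endothelial markers in the table summed to 37.0 to 39.2 CPM in control and 32.1 to 35.1 CPM in 25(OH)D, nearly all from the collagen gene COL1A1. Mitochondrial genes took 7.85% to 7.99% of the counts in control and 8.89% to 9.24% in 25(OH)D, and their part in the results was not tested. Over all 18183 genes tested, 17.3% were higher and 16.5% were lower in 25(OH)D at an adjusted p under 0.05 (edgeR quasi-likelihood test with Benjamini-Hochberg adjustment over all genes tested, as for every adjusted p here). The median log2 fold change was -0.01 and the quartiles were -0.23 and 0.22.

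Against that background, 3 of the 8 genes tested rose (INPP4B, PHLPP1 and PIK3CA, where 17.3% of all genes did), 1 fell (PIK3R1, where 16.5% did) and 4 were not called. The groups of libraries did not overlap for 5 of the 8, where 45.7% of all genes tested had groups that did not overlap. The study's volcano limits are an absolute log2 fold change over 1 with an unadjusted p under 0.05. INPP4B alone of the 8 passed them, where 6.65% of all genes tested did. The median log2 fold change of the 8 genes was 0.08 and their median absolute log2 fold change was 0.19, where the latter was 0.23 over all genes tested. With 8 genes, these counts are a description of the genes.

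**Figure D1:**
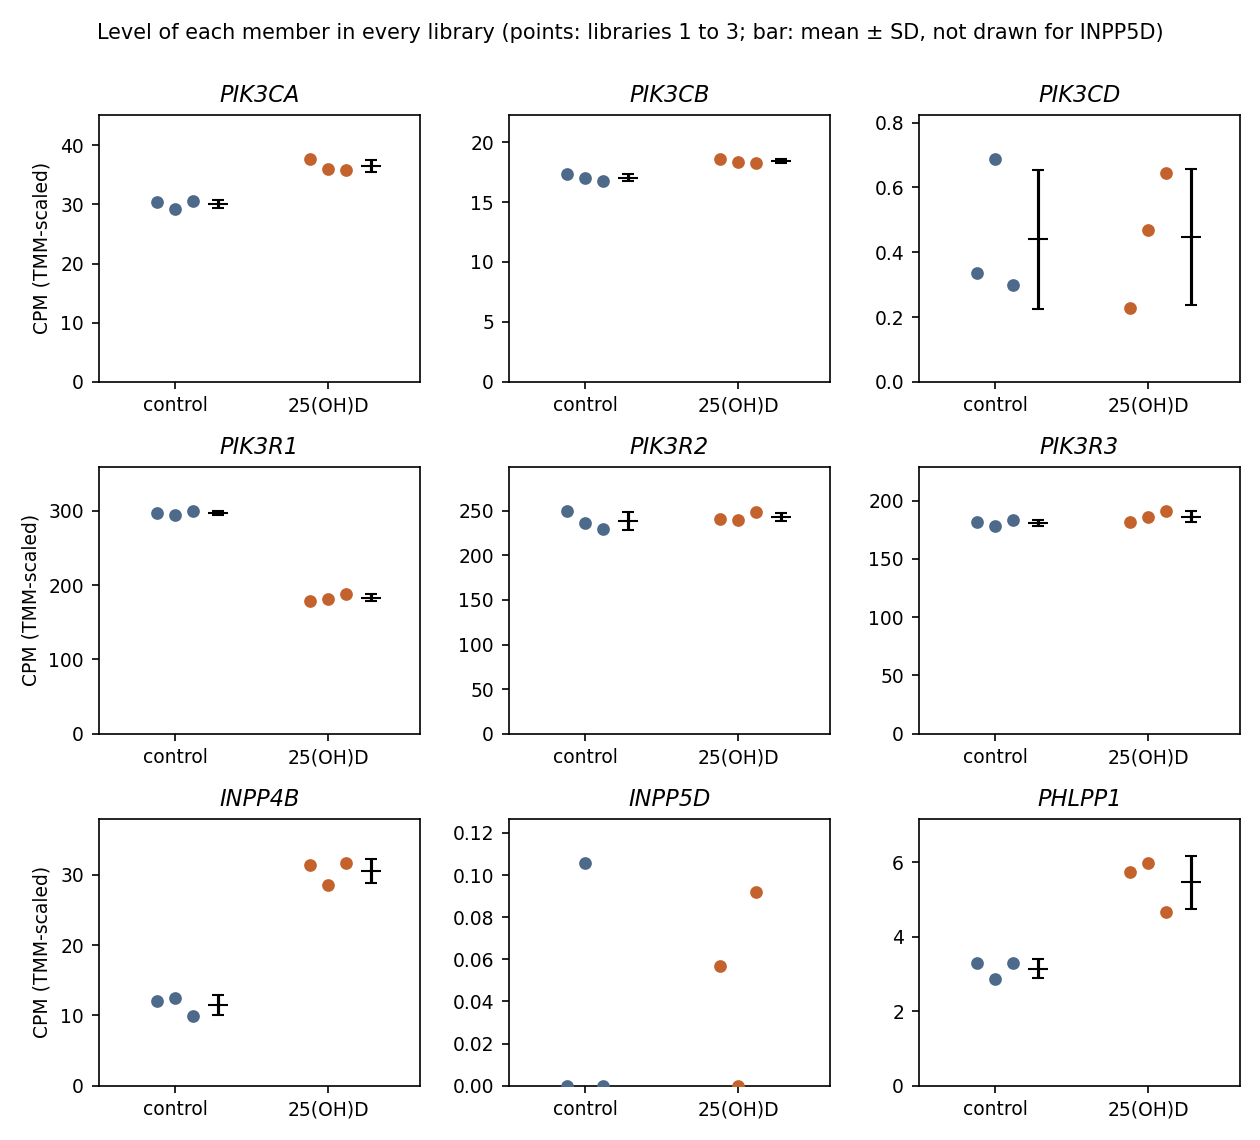
Level of each of the 9 genes in CPM (vertical axes start at 0 and differ between panels) in the 3 control and 3 25(OH)D libraries; points are libraries and bars are the mean ± SD. The groups are apart for PIK3CA, PIK3CB, PIK3R1, INPP4B and PHLPP1, with PIK3R1 the gene that is lower in 25(OH)D.

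The catalytic genes differed little between the groups. PIK3CA, which encodes the catalytic protein p110α (chromosome 3, 179148114 to 179240093, plus strand of GRCh38), had 30.5, 29.3 and 30.5 CPM in the control libraries and 37.6, 35.99 and 35.7 CPM in the 25(OH)D libraries. Every 25(OH)D library lay above every control library. The means were 30.1 ± 0.691 and 36.4 ± 1.02 CPM (SD, n = 3 each), and PIK3CA rose 1.21-fold (95% interval 1.11 to 1.32), a log2 fold change of 0.28 with a standard error of 0.0588 and an adjusted p of 0.00208 by edgeR's quasi-likelihood test. The rise was small beside that of many genes, since 21.4% of all genes tested had a larger log2 fold change. PIK3CA shares 3403 exon bases, 36.2% of its exon bases, with KCNMB3, a potassium channel subunit gene on the opposite strand. KCNMB3 had 269 to 347 counts per library against 1109 to 1385 for PIK3CA, and its log2 fold change was -0.05 (adjusted p = 0.749 by edgeR). The library kit kept the strand, but whether the counting used it is not given in the sources used here.

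PIK3CB, which encodes p110β (chromosome 3, 138652699 to 138834938, minus strand), had 17.3, 17.0 and 16.7 CPM in control and 18.6, 18.3 and 18.2 CPM in 25(OH)D. The groups did not overlap, but the gap was narrow. The log2 fold change of PIK3CB was 0.11 (95% interval -0.04 to 0.26) with an adjusted p of 0.254 by edgeR, so it was not called. PIK3CD, which encodes p110δ, the catalytic protein best known from leukocytes (chromosome 1, 9651732 to 9729114, plus strand), had 14, 26 and 11 counts in control and 8, 18 and 21 counts in 25(OH)D. The groups overlapped, with means of 0.440 ± 0.214 and 0.446 ± 0.209 CPM (SD, n = 3 each). The 95% interval of its log2 fold change ran from -1.04 to 1.07. Changes of up to about 2-fold in either direction were therefore not excluded at this depth.

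The regulatory genes were more abundant, and they separated from each other. PIK3R1, which encodes p85α and its shorter isoforms (chromosome 5, 68215720 to 68301821, plus strand), had 12380, 11158 and 11036 counts in control and 6306, 6975 and 6152 counts in 25(OH)D. In CPM these were 297, 295 and 299.5 in control and 179, 181 and 189 in 25(OH)D. The replicates were tight, and the lowest control library was far above the highest 25(OH)D library. PIK3R1 fell from 297 ± 2.39 to 183 ± 4.95 CPM (SD, n = 3 each), to 0.616 of the control level (95% interval 0.583 to 0.651), with a log2 fold change of -0.70, a standard error of 0.0373 and an adjusted p of 3.06e-09 by edgeR. Only 5.86% of all genes tested had a log2 fold change as low or lower. No other gene in the table shares exon bases with PIK3R1.

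The start of PIK3R1 is printed because it is the one regulatory gene whose mRNA changed. Windows of 250 bases before and 50 after each RefSeq start site (RefSeq, GRCh38.p14) were searched, 25 windows for the 9 genes. The sequence is the reference stretch that lies outside exons at the upstream start, chr5:68215506-68215719, plus strand, with no base in capitals because none of the searched motifs is in it. It is 81.8% G or C and holds 31 CG pairs.
PIK3R1: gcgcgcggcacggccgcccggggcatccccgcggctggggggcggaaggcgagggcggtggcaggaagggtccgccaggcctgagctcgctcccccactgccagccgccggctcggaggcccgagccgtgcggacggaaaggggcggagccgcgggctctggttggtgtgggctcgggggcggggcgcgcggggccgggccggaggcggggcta
Which start site the cells used cannot be read from counts per gene.

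PIK3R2, which encodes p85β (chromosome 19, 18153118 to 18170540, plus strand), had 249, 236 and 229.98 CPM in control and 241, 240.03 and 248 CPM in 25(OH)D. PIK3R3, which encodes p55γ (chromosome 1, 46040140 to 46176488, minus strand), had 182, 178 and 183 CPM in control and 182, 186 and 191 CPM in 25(OH)D. The groups overlapped for both genes. The log2 fold changes were 0.03 for PIK3R2 (95% interval -0.06 to 0.11, adjusted p = 0.655) and 0.04 for PIK3R3 (95% interval -0.04 to 0.12, adjusted p = 0.451), both by edgeR, and both signs turned negative with upper-quartile factors or library sizes alone. As folds the intervals ran from 0.959 to 1.08 for PIK3R2 and from 0.972 to 1.09 for PIK3R3. PIK3R2 shares 3947 of its exon bases, or 87.2%, with AC007192.4, a gene model on the same strand with 9241 to 11519 counts and a log2 fold change of 0.06 (adjusted p = 0.250 by edgeR). Reads over these bases cannot be assigned to PIK3R2 alone, and its level may include them.

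**Figure D2:**
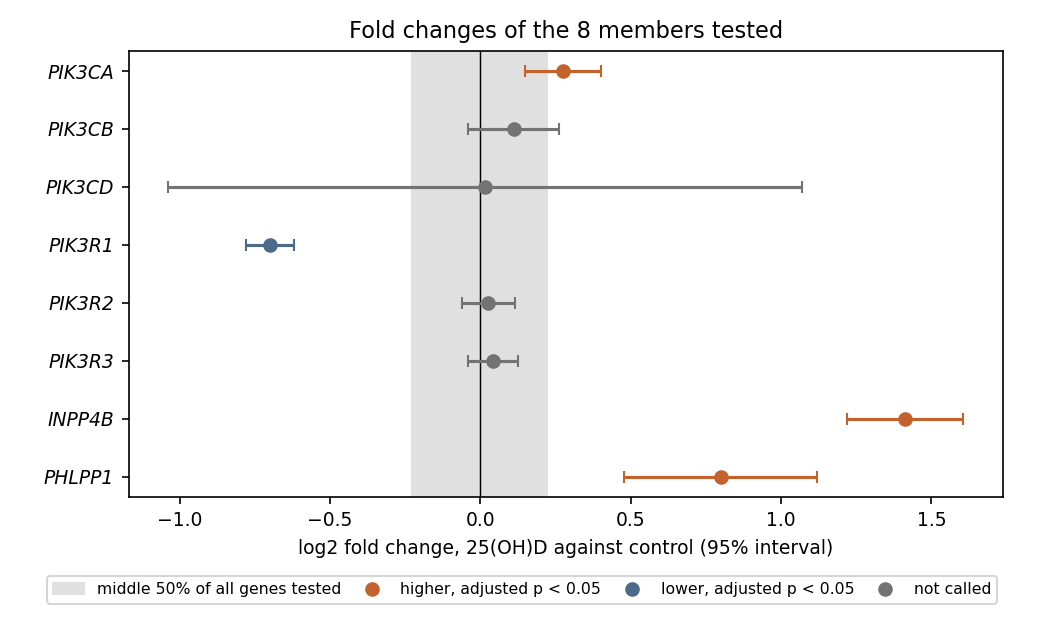
Log2 fold change of 25(OH)D against control for the 8 genes tested (points) with 95% intervals (bars), over a grey band for the range between the quartiles of all genes tested. INPP4B, PHLPP1 and PIK3CA lie to the right of 0 and PIK3R1 at -0.70 to the left; PIK3CD has the widest interval, from -1.04 to 1.07.

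The phosphatase genes gave the largest rise of the 9. INPP4B, which encodes a phosphatase of the lipids made by PI3K (chromosome 4, 142023160 to 142847432, minus strand), had 502, 471 and 364 counts in control and 1102, 1099 and 1032 counts in 25(OH)D. In CPM these were 12.05, 12.4 and 9.88 in control and 31.3, 28.6 and 31.6 in 25(OH)D. The third control library was the lowest of its group, and every 25(OH)D library was above 28 CPM. INPP4B rose from 11.5 ± 1.38 to 30.5 ± 1.70 CPM (SD, n = 3 each), 2.66-fold (95% interval 2.33 to 3.04), with a log2 fold change of 1.41, a standard error of 0.0900 and an adjusted p of 2.10e-08 by edgeR. Of all genes tested, 2.33% had a larger log2 fold change. On the log2(RPKM + 1) scale, which understates the change of low genes, the difference was 0.78 for INPP4B. In a bulk culture, more cells that express a gene and more mRNA per cell cannot be told apart.

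The INPP4B starts are printed because its mRNA rose most. RefSeq places 6 start windows along this long gene, which spans 824273 bases in the table. The stretch outside exons at the upstream start, chr4:142846332-142846551 on the minus strand, is 73.6% G or C with 27 CG pairs. A stretch at an internal start, chr4:142405447-142405696 on the minus strand, is 44.8% G or C with 2 CG pairs, and its capitals mark an E-box, CACGTG, at position -54 from that start.
INPP4B upstream start: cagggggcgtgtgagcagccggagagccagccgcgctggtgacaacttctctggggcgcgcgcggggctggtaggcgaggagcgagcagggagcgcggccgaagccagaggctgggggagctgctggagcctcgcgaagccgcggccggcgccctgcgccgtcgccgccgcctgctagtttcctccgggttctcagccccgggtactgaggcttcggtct
INPP4B internal start: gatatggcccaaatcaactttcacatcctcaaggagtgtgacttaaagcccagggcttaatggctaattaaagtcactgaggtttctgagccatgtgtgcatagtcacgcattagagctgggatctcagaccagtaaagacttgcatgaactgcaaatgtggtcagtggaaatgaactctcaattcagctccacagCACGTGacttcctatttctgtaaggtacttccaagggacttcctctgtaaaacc
The same 6 letters were in 7.26% of 35116 promoter windows of this length in the RefSeq table, both strands read, so a match in a gene with 6 windows is not rare. A FOXO site, GTAAACA on either strand, was in 3.42% of the windows and in the PIK3CA window, at position -149 from the start, inside an exon of the count table's gene model. The direct repeat of the vitamin D response element with a spacer of 3 bases was in 26 of all windows (0.0740%, both strands read). It was in none of the 25 windows of these genes. So rare a match would be missing from most sets of 25 windows, so its absence here is not informative. These matches describe letters within 300 bases of a start and are no record of binding.

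PHLPP1, which encodes the phosphatase that acts on AKT (chromosome 18, 62715450 to 62980433, plus strand), was less abundant, with 137, 108 and 121 counts in control and 202, 230 and 152 counts in 25(OH)D. In CPM these were 3.29, 2.85 and 3.28 in control and 5.74, 5.98 and 4.66 in 25(OH)D. The groups did not overlap, although the third 25(OH)D library stood below the other two. PHLPP1 rose from 3.14 ± 0.250 to 5.46 ± 0.702 CPM (SD, n = 3 each), 1.74-fold (95% interval 1.39 to 2.17), with a log2 fold change of 0.80, a standard error of 0.1496 and an adjusted p of 7.90e-04 by edgeR. On the log2(RPKM + 1) scale the difference was 0.23. Its reference start is printed as that of the other phosphatase gene that rose. The stretch outside exons is chr18:62715291-62715449, plus strand, 69.8% G or C with 19 CG pairs and none of the searched motifs.
PHLPP1: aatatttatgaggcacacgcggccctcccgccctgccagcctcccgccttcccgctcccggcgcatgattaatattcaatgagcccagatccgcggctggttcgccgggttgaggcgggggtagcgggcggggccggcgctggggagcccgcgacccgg

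INPP5D, which encodes the lipid phosphatase SHIP1 of blood cells (chromosome 2, 233059967 to 233207903, plus strand), had 0, 4 and 0 counts in control and 2, 0 and 3 counts in 25(OH)D. It fell below the low-count filter, so no test was run. At this depth no difference in INPP5D was detectable. INPP5D belongs mainly to blood cells, and the blood cell marker PTPRC was likewise at most 6 counts per library. Counts of 1 to 4 in the table were even in 69.8% of cases, against 51.1% of counts from 1000 to 2000, so a low count may hold both reads of 1 fragment.

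Levels of different genes were compared per length, in RPKM. The level of PIK3R2 may include reads over the exon bases it shares with AC007192.4. Every rank, share and ratio that uses PIK3R2 carries that limit. In control the order from high to low was PIK3R2 (53.5 ± 2.42), PIK3R1 (28.02 ± 0.128), PIK3R3 (23.9 ± 0.267), PIK3CA (3.25 ± 0.0681), PIK3CB (2.20 ± 0.0465), INPP4B (0.822 ± 0.103), PHLPP1 (0.349 ± 0.0270), PIK3CD (0.0707 ± 0.0346) and INPP5D (0.00413 ± 0.00715) RPKM (SD, n = 3 each). All neighbours in that order had ranges that did not overlap. In 25(OH)D the order changed at 1 place: PIK3R1, at 16.3 to 17.2 RPKM, was below PIK3R3, at 23.3 to 24.4 RPKM. INPP4B came close to PIK3CB, with a highest library of 2.19 RPKM against a lowest of 2.28 RPKM for PIK3CB. The regulatory genes together stood far above the catalytic genes in both groups.

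**Figure D3:**
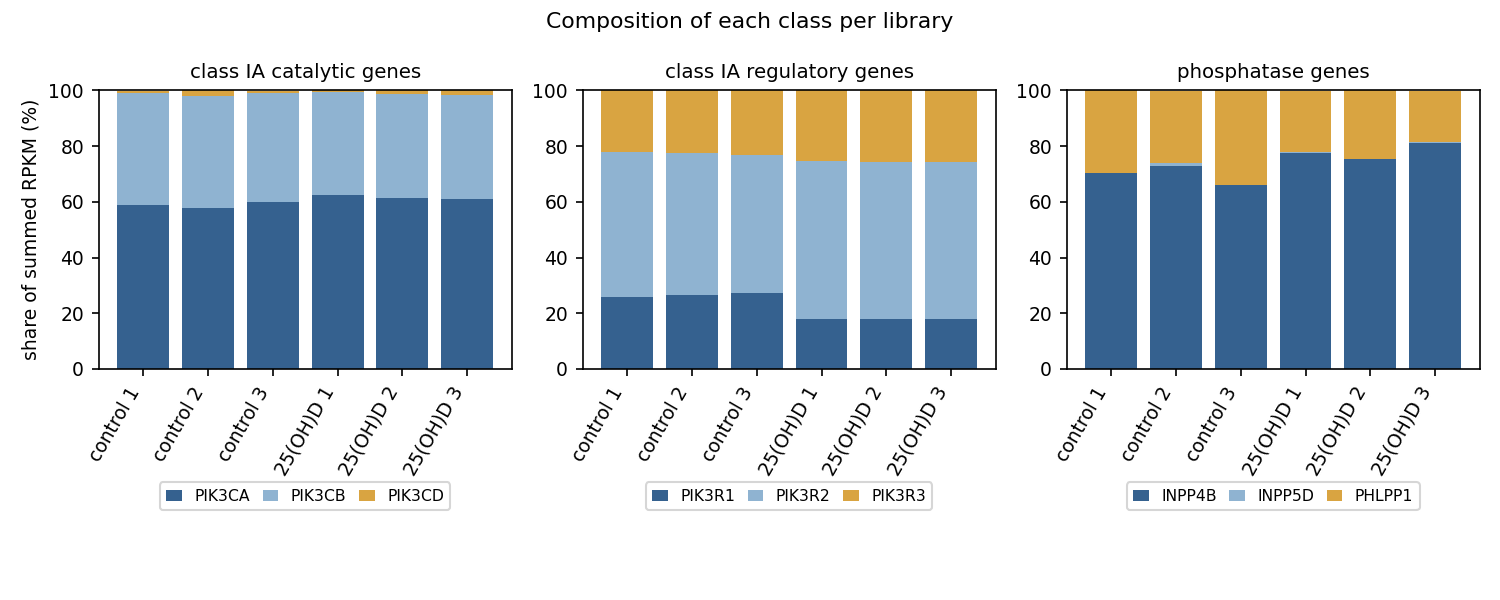
Share of each gene in the summed RPKM of its class (stacked bars to 100%) in each of the 6 libraries, for the catalytic, the regulatory and the phosphatase genes. PIK3R1 makes up 25.9% to 27.1% of the regulatory sum in control and 17.8% to 18.0% in 25(OH)D; PIK3CD and INPP5D are thin slices.

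Within the classes, shares of the summed RPKM were tested by exact permutation of the 6 libraries (two-sided), and 3 against 3 libraries cannot give a p under 0.1. These 10 measures and the 8 ratios that follow, chosen after their values were seen, formed 1 family of 18. Of these, 15 had groups that did not overlap and therefore an exact p of 0.1, or 0.12 after Benjamini-Hochberg adjustment. The measures reuse the same genes, so the 15 are not separate results. The share of PIK3R1 among the regulatory genes was 26.6 ± 0.603% in control and 17.9 ± 0.114% in 25(OH)D (SD, n = 3 each). The shares of PIK3R2, from 50.7 ± 1.12% to 56.6 ± 0.297%, and PIK3R3, from 22.7 ± 0.525% to 25.5 ± 0.219%, were higher in every 25(OH)D library, and the 3 shares add to a fixed total. Among the catalytic genes PIK3CA made up 58.8 ± 0.992% in control and 61.6 ± 0.768% in 25(OH)D, and PIK3CB 39.9 ± 0.471% and 37.3 ± 0.269%. Among the phosphatases INPP4B made up 69.8 ± 3.54% and 78.1 ± 2.82%, and PHLPP1 29.9 ± 4.02% and 21.7 ± 3.01%, although both genes rose. The summed regulatory RPKM was 19.1 ± 0.222 times the summed catalytic RPKM in control and 15.1 ± 0.500 times in 25(OH)D, with no overlap. The mRNA ratio says nothing of the ratio of the proteins.

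The ratios between pairs of genes in the same library do not depend on how libraries are scaled. PIK3R1 was 0.500, 0.524 and 0.547 times PIK3R2 in control and 0.313, 0.317 and 0.319 times in 25(OH)D, a log2 difference of -0.73. PIK3R1 was 1.17, 1.18 and 1.17 times PIK3R3 in control and 0.702, 0.695 and 0.704 times in 25(OH)D, a log2 difference of -0.74, so this ratio crossed 1 between the groups. The ratio of PIK3R2 to PIK3R3 overlapped between the groups, at 2.24 ± 0.10002 and 2.21 ± 0.0303 (SD, n = 3 each; exact permutation p = 0.7). PIK3CA was 1.48 ± 0.0410 times PIK3CB in control and 1.65 ± 0.0319 times in 25(OH)D, so the ratio of both catalytic genes moved less than that of PIK3R1 to its paralogs. PIK3R1 was 8.63 ± 0.144 times PIK3CA in control and 4.39 ± 0.225 times in 25(OH)D, a log2 difference of -0.98, and INPP4B was 0.254 ± 0.0345 and 0.557 ± 0.0308 times PIK3CA.

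Both phosphatases that rose have a paralog of the same activity. INPP4B was 0.388, 0.523 and 0.393 times INPP4A in control and 1.44, 1.34 and 1.29 times in 25(OH)D. The ratio was below 1 in every control library and above 1 in every 25(OH)D library. INPP4A itself had 1.91 and 1.57 RPKM on average, with a log2 fold change of -0.25 that was not called (adjusted p = 0.0673 by edgeR). PHLPP1 stayed the minor paralog: it was 0.152, 0.135 and 0.177 times PHLPP2 in control and 0.219, 0.227 and 0.188 times in 25(OH)D. PHLPP2 also rose, with a log2 fold change of 0.33 (adjusted p = 0.00195 by edgeR). INPPL1, the paralog of INPP5D, was far more abundant than INPP5D, at 19.9 RPKM in control and 20.3 RPKM in 25(OH)D, with a log2 fold change of 0.08 (adjusted p = 0.196 by edgeR).

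**Figure D4:**
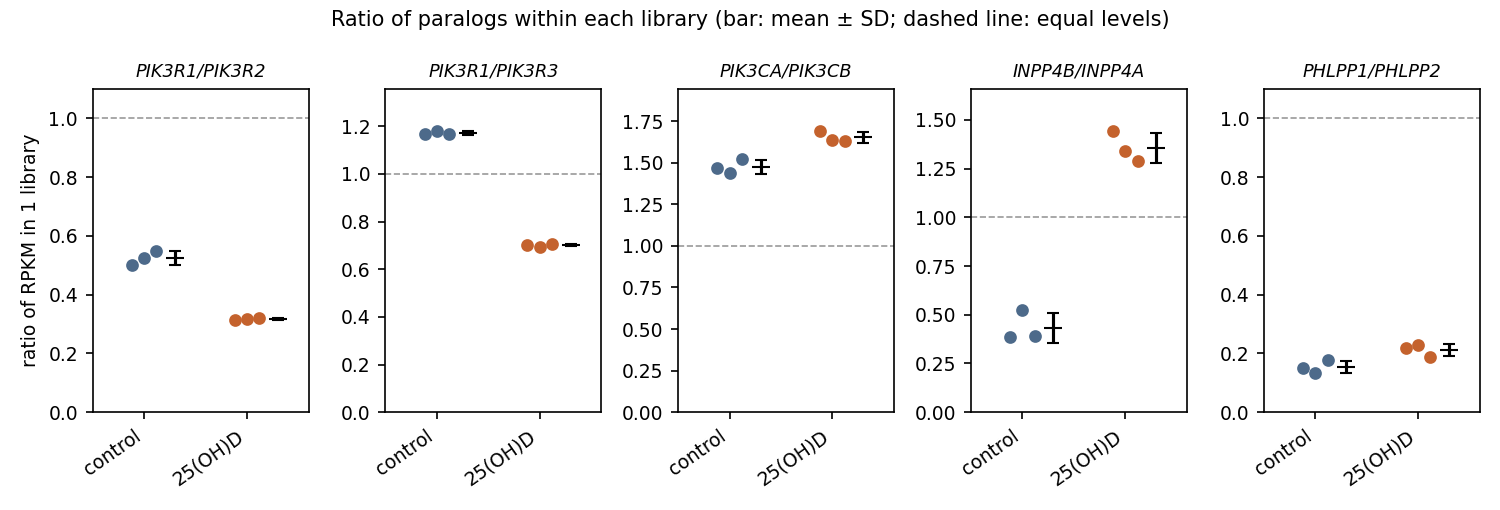
Ratio of the RPKM of 2 genes in the same library (vertical axes start at 0 and differ between panels), for the 3 control and 3 25(OH)D libraries; points are libraries, bars the mean ± SD and the dashed line equal levels. PIK3R1/PIK3R3 passes from above to below 1 and INPP4B/INPP4A from below to above 1.

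The rest of the pathway was described by lists, with the number of genes called at an adjusted p under 0.05 set beside the shares over all genes tested. Of 10 other PI3K subunits and interacting proteins, 6 were tested, of which none rose and 1 fell, where 17.3% of all genes rose and 16.5% fell, and the median log2 fold change was -0.18. A fall of 1 gene in 6 is near that background. The gene that fell was PIK3C2B, a class II catalytic gene, with a log2 fold change of -0.18 (adjusted p = 0.0420 by edgeR). With 1 library left out at a time, PIK3C2B was called lower without the third control library (adjusted p = 0.0277 by edgeR) and not without each of the other 5 (adjusted p between 0.0714 and 0.232). The call was also lost with no low-count filter and with DESeq2. PIK3C3, the class III kinase of endosomes and autophagy, had a log2 fold change of 0.17 (adjusted p = 0.103), which was the smallest p in the upward direction. PIK3CG, the class IB catalytic gene of leukocytes, had at most 2 counts per library and was not tested.

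Of 24 other antagonist phosphatases, 23 were tested, of which 4 rose (FIG4, MTM1, MTMR6 and PHLPP2) and 2 fell (INPP5J and INPP5E), with a median log2 fold change of 0.02. The number that rose is near the 17.3% over all genes, and the number that fell is below the 16.5%. FIG4, a phosphatase of endosomal lipids, rose from 4.18 to 7.35 RPKM on average, with a log2 fold change of 0.86 and an adjusted p of 3.23e-06 by edgeR. INPP5J, another phosphatase of the lipid product of PI3K, fell from 14.0 to 9.81 RPKM, with a log2 fold change of -0.47 and an adjusted p of 1.97e-05. Lipid phosphatases did not move together in these libraries. INPP4B was higher, while INPP5J and INPP5E were lower, with a log2 fold change of -0.38 for INPP5E (adjusted p = 0.0324 by edgeR). INPPL1 was not called (log2 fold change 0.08, adjusted p = 0.196 by edgeR). The number of phosphatases that fell was 5 with upper-quartile factors or library sizes alone and 1 with DESeq2.

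The list of receptor adaptors held 18 genes, among them the receptor ERBB3. Of the 16 tested, 3 rose, near the 17.3% over all genes, and 5 fell, where 16.5% of all genes did. The median log2 fold change was -0.17. IRS1, the insulin receptor substrate that binds the regulatory proteins, fell from 4.16 to 2.76 RPKM (log2 fold change -0.55, adjusted p = 1.41e-05 by edgeR). The other 4 that fell were IRS4, GAB1, GRB2 and GRB10, with log2 fold changes between -1.07 and -0.21. ERBB3, the receptor with several docking sites for the regulatory proteins, rose from 27.9 to 34.4 RPKM (log2 fold change 0.35, adjusted p = 1.73e-05). GAB2 and SH2B1 also rose, with log2 fold changes of 0.64 and 0.17.

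**Figure D5:**
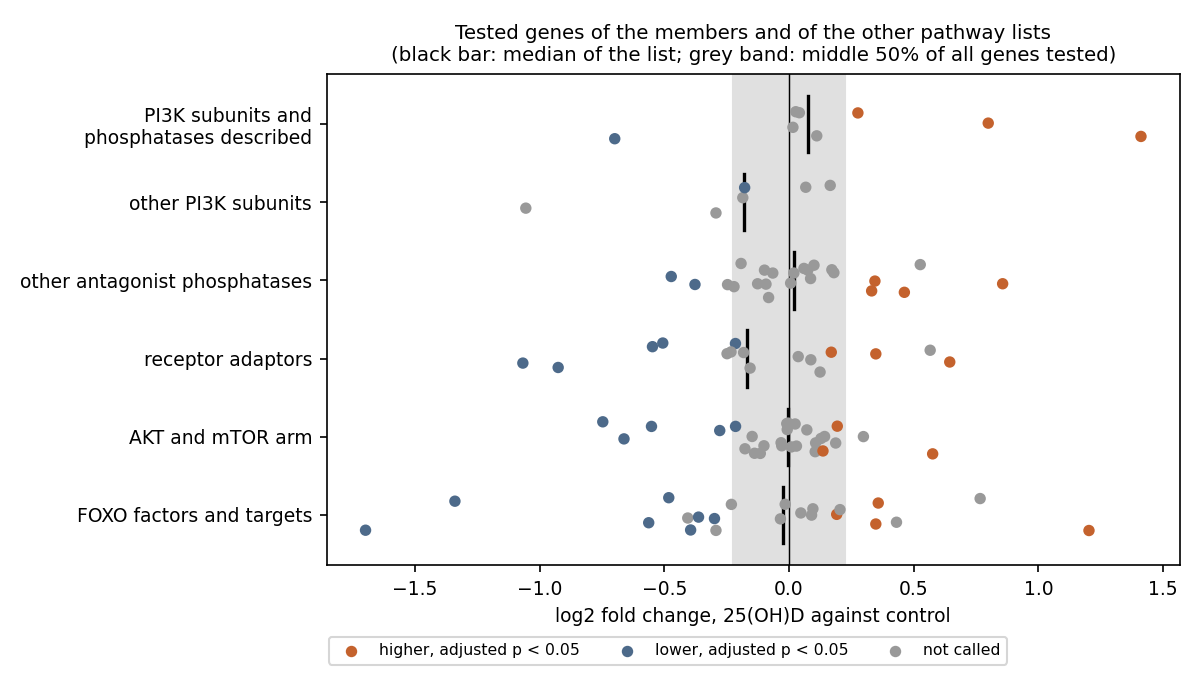
Log2 fold change of 25(OH)D against control (horizontal axis) for every tested gene of the 9 genes and of the 5 pathway lists (rows); colours mark genes called higher, lower or not called, black bars the list medians and the grey band the range between the quartiles of all genes tested. Medians lie between -0.18 and 0.08, and CCNG2 at -1.70 and INPP4B at 1.41 are the outermost points.

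Of 30 genes of the AKT and mTOR arm, 29 were tested, of which 3 rose and 5 fell, with a median log2 fold change of -0.00365. The number that rose is below the 17.3% over all genes and the number that fell is near the 16.5%. TRIB3, a pseudokinase that binds AKT and is induced by amino acid stress, fell from 16.7 to 9.63 RPKM (log2 fold change -0.75, adjusted p = 2.43e-07 by edgeR), and DEPTOR, EIF4EBP1, GSK3B and AKT2 also fell. PRR5, a subunit of the mTOR complex that phosphorylates AKT, had the smallest p among those that rose, with a log2 fold change of 0.58 (adjusted p = 0.0149). TSC2 and FKBP5 also rose, with log2 fold changes of 0.19 and 0.14 (adjusted p = 0.0296 and 0.0182 by edgeR). The number that rose was 1 with upper-quartile factors or library sizes alone and 0 with limma on RPKM. AKT1, the most abundant AKT gene at 23.9 and 24.9 RPKM, had a log2 fold change of 0.10 and was not called (adjusted p = 0.0615 by edgeR).

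Of 24 FOXO factors and genes known as FOXO targets, 22 were tested, of which 4 rose, near the 17.3% over all genes, and 7 fell, where 16.5% of all genes did, with a median log2 fold change of -0.02. CCNG2, a cyclin that restrains division, fell from 15.6 to 4.66 RPKM (log2 fold change -1.70, adjusted p = 4.38e-10 by edgeR), and FBXO32, TXNIP, CDKN1B, IGF1R, BNIP3 and BCL2L11 also fell. BCL6, a transcriptional repressor, rose from 1.65 to 3.68 RPKM (log2 fold change 1.203, adjusted p = 2.21e-08), and FOXO4, ERBB3 and CITED2 also rose. FOXO3, with 4.74 and 4.55 RPKM, had a log2 fold change of -0.02 and was not called (adjusted p = 0.911 by edgeR). These genes answer to many other factors, and their counts do not measure FOXO activity.

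The genes most like the 3 that changed most were found by the root mean square difference of log2 CPM over the 6 libraries, each gene centred on its own mean, among 11258 genes with a mean of at least 100 counts. For INPP4B they were PRIMA1 (difference 0.0387), STKLD1 (0.0763) and IFI6 (0.0956), where the median over the candidates was 0.728. For PIK3R1 they were ZSWIM1 (0.0201), UAP1L1 (0.0205) and ANO1 (0.0280), with a median of 0.362. For PHLPP1 they were SNHG11 (0.0573), HLA-F (0.0660) and HIST1H2AE (0.0696), with a median of 0.432. With 2 groups of 3 libraries, likeness of this kind mostly restates a similar fold change.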

How the data were processed

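mRNA of MDA-MB-453 cells was sequenced in 6 libraries, 3 control and 3 25(OH)D, grouped by the treatment in their labels. The authors deposited a table of counts, whole numbers of reads per gene without normalisation, and a table of RPKM values, which equalled the counts divided by gene length and library total (largest relative difference 5.14e-15). The submitters' processing notes name Trimmomatic 0.36, featureCounts, Subread 1.5.1, edgeR 3.12.1 and GRCh38. The aligner, the annotation release and the strand setting are not given in the sources used here.

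The counts were compared between the groups in edgeR 4.0.16 under R 4.3.3, with TMM factors, the package's low-count filter (minimum count 10) and a quasi-likelihood test with no covariate. The Benjamini-Hochberg adjustment ran over 18183 genes, and a gene was called at an adjusted p under 0.05. The common biological coefficient of variation was 0.0788. Totals of 33268860 to 40928176 counts limit the precision of low genes, and the floors cover counting error only. The script was tested on simulated data. Shares and ratios used RPKM in Python 3.11.15 with scipy 1.17.1. Promoter sequences were RefSeq windows on GRCh38.p14, matched for all 9 genes. PIP4P1 and PIP4P2 were matched to TMEM55B and TMEM55A through RefSeq synonyms.

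The genes, the lists, the tests and the alternatives were chosen with earlier results of these data known. The text names all 9 genes, in each list the gene with the smallest p in each direction, the highest marker of each marker list, and the 3 genes whose centred pattern over the libraries is nearest to that of each of the 3 genes with the largest change; other genes were named after their values were seen. Alternatives were RLE (the size factors of DESeq2) or upper-quartile factors, library sizes alone, no low-count filter, DESeq2 1.42.0, limma 3.58.1 with voom or on log2(RPKM + 1) and log2(RPKM + 0.1), the replicate number as a block, and leaving out each library. Other experiments of the study were not analysed here.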

Additional observations from a re-analysis of the deposited data

How the results depend on the processing

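Over the 15 alternatives, the same count of 3 genes called higher and 1 called lower was found each time, and the log2 fold changes ran from 0.78 to 1.48 for INPP4B, 0.23 to 0.91 for PHLPP1, 0.18 to 0.30 for PIK3CA and -0.74 to -0.68 for PIK3R1. The lowest values of INPP4B and PHLPP1 came from limma on log2(RPKM + 1), which understates the change of low genes by its construction, and there 0 of the 9 genes passed the study's volcano limits. Leaving out each library, the log2 fold changes ran from 1.32 to 1.48 for INPP4B, 0.74 to 0.91 for PHLPP1, 0.26 to 0.30 for PIK3CA and -0.71 to -0.68 for PIK3R1.

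The values of 3 genes near 0 changed sign, and the cause was not tested. With upper-quartile factors, library sizes alone, limma on log2(RPKM + 1) and limma on log2(RPKM + 0.1), in that order, PIK3R2 was at -0.0142, -0.0171, -0.0158 and -0.0160, PIK3R3 at -0.00021, -0.0026, -0.0025 and -0.0026, and PIK3CD at -0.0266, -0.0287, -0.0017 and -0.0104. PIK3CD ran from -0.31 to 0.49 when each library was left out. Of the 8 ratios, chosen after seeing the data, PIK3R2/PIK3R3 ran from -0.05 to 0.02 on the log2 scale when each library was left out, and the other 7 kept their direction. The median shift of the log2 fold change over all genes was -0.041 with upper-quartile factors and -0.044 with library sizes alone. No such shift was computed for the limma fits on RPKM.

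The other PI3K genes that fell numbered 0 with no low-count filter, with DESeq2 and with both limma fits on RPKM, and 0 to 1 when each library was left out. Those that rose numbered 0 to 1, with PIK3C3 called without the third 25(OH)D library. The antagonist phosphatases that rose numbered 2 with both limma fits on RPKM. Those that fell numbered 5 with upper-quartile factors and with library sizes alone, 1 with DESeq2 and with limma on log2(RPKM + 0.1), and 1 to 2 when each library was left out, with 1 without the second 25(OH)D library. The AKT and mTOR genes that rose numbered 1 with upper-quartile factors and with library sizes alone, 0 with both limma fits on RPKM, and 1 to 4 when each library was left out, with 1 without the second 25(OH)D library. With shares of summed CPM in place of RPKM, the difference in the regulatory share was -11.6 percentage points for PIK3R1 (-8.67 with RPKM) and 5.16 for PIK3R3 (2.84 with RPKM), because CPM is not divided by length.

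Libraries with the same replicate number showed no shared deviation (correlations of -0.072, -0.012 and -0.046). The labels do not say whether the numbers pair the libraries, and such correlations cannot exclude pairing. With the replicate block 3057 genes were higher and 2896 lower over all genes, PIK3CD was at -0.0021 and 1 antagonist phosphatase fell in place of 2. Depth limited PIK3CD and INPP5D, which had at most 26 and 4 counts per library.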
